A study of Mus musculus with 10 samples.

Results

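The genes of the mitochondrial respiratory chain were followed across 10 Affymetrix mg_u74av2 arrays of a mouse mammary tumour series. Members were all probe sets whose 1 annotated symbol starts with Nduf, Sdha to Sdhd, Uqcr, Cox4 to Cox8 or Atp5, which gave 98 of the 12422 probe sets that are not controls, for 71 of the 8251 genes with a single-symbol probe set. By symbol, 42 probe sets belong to complex I, 4 to complex II, 7 to complex III, 23 to complex IV and 22 to complex V. Those of complex I include 4 probe sets of assembly factors, and those of complex IV include 1 of the supercomplex factor Cox7a2l. The rule itself reads gene symbols alone. Another 10 probe sets carry a respiratory chain symbol together with other symbols and were left out. Of the 98 members, 88 probe sets for 69 genes lay above a detection floor, set at an intensity of 27.0, on at least 2 of the 9 arrays with a strain name and were tested.

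All animals were adult females aged 90 days, and the series title names the MMTV-PyMT transgene. In it, the oncogene polyomavirus middle T is expressed in mammary epithelial cells under the long terminal repeat of mouse mammary tumour virus. Titles name ILn, LP, MOLF and NZB (2 arrays each, A and B) and FVBn (1 array, B), while the title of 1 further array names no strain. The titles of that array, ILn A and NZB B do not name a tumour. The strain label reads FVB/Nj for every array, so each group rests on its title, and the labels do not state how the other strain names were combined with the transgene or what the word mix in the titles pooled. Nothing says that arrays A and B of a strain come from separate animals, so p-values measure only the spread between arrays, which may be technical. Krt8 and Krt18, keratins of luminal mammary epithelium, lay between 10.18 and 11.38 log2 units on the 9 strain arrays, whereas the basal keratins Krt5 and Krt14 were at the floor on all 9.

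Of the 9 strain arrays, MOLF A and NZB B were set apart from the remaining 7. The correlation of log2 values was 0.927 between MOLF A and NZB B, 0.812 to 0.868 between either of them and the remaining 7, and 0.931 to 0.974 among the 7. The deposited trimmed mean was 150.0 on every array except ILn A, where it was 499.9. All values below are quantile normalized log2 intensities, in which 1 unit is a doubling, and levels are compared only within a probe set. The log2 ratio of 3' to 5' actin probe sets, a measure of RNA integrity and labelling, was 0.60 to 1.12 in LP, MOLF and NZB and 0.22 to 0.28 in ILn and FVBn, and its part in the results was not tested.

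The respiratory chain passes electrons from NADH through complex I, or from succinate through complex II, to ubiquinone, then through complex III and cytochrome c to oxygen at complex IV. Complexes I, III and IV pump protons across the inner mitochondrial membrane, and complex V, the ATP synthase, uses that gradient to make ATP. Some nuclear subunits of complex IV exist as a general form and as a second form typical of heart and skeletal muscle: Cox6a1 and Cox6a2, Cox7a2 and Cox7a1, Cox8a and Cox8b. Cox7a1 and Cox8b transcripts are also known from brown fat.

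Upstream regions of the muscle forms Cox7a1 and Cox8b and the general forms Cox6a1 and Cox7a2 are shown because muscle and general forms differed in how they varied between arrays. Cox6a2 had no window in the sequences used. The window of Cox8a, which held an E box and no exact NRF1 or GABPA motif, is not shown. Of the 71 genes, 58 have a RefSeq start site in GRCm38.p6 with 63 windows of 250 bases before the start. Capitals mark 3 motifs searched on both strands: GCGCA joined to its own reverse complement (NRF1), CCGGAAG (GABPA) and CANNTG (the E box bound by muscle regulatory factors and others). Cox7a1 is at chr7:30183921-30184170 on the plus strand, Cox8b at chr7:140900447-140900696, Cox6a1 at chr5:115348959-115349208 and Cox7a2 at chr9:79759854-79760103, the last 3 on the minus strand.
Cox7a1: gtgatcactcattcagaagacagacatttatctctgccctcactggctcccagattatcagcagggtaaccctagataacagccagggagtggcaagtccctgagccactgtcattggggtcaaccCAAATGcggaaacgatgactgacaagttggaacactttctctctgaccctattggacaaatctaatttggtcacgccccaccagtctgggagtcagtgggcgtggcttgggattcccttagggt
Cox8b: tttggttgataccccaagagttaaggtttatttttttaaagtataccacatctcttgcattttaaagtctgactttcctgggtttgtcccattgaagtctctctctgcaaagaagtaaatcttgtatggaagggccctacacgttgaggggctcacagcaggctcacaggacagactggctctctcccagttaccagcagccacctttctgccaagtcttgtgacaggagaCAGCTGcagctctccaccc
Cox6a1: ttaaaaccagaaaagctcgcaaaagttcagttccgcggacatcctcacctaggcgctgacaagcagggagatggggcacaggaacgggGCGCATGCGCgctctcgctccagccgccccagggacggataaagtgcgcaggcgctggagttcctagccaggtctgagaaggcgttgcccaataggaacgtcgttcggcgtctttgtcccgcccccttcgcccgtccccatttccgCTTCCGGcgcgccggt
Cox7a2: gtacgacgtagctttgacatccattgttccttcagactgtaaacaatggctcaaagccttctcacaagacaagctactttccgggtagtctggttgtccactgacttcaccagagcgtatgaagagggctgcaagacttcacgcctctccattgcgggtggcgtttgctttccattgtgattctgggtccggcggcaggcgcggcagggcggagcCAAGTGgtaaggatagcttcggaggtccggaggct
The Cox6a1 window held 26 CpG dinucleotides, an NRF1 motif and a GABPA motif, and the Cox7a2 window held 14 CpG and an E box. The Cox7a1 and Cox8b windows held 4 and 1 CpG, an E box each, and no exact NRF1 or GABPA motif. Over the whole set, the NRF1 motif stood in 4 of 63 windows (6.35%), those of Atp5g2, Atp5k, Cox6a1 and Ndufaf4, against 0.782% of all 32851 windows. The GABPA motif stood in 12 of 63 windows (19.0%) against 6.91% of all windows, among them those of Cox6a1, Ndufb6, Uqcr11 and Sdhd. An E box stood in 61.9% of the 63 windows and in 66.2% of all windows. The median window held 14 CpG in the set and 6 among all windows. A match of letters is a description and no measure of binding, and the motifs may overlap each other.

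Across the strains, no general subunit of the 5 complexes differed beyond the test's threshold. None of the 88 tested members passed the moderated F test over ILn, LP, MOLF and NZB (limma, Benjamini-Hochberg adjusted p under 0.05 over all 9899 tested probe sets; percent of all tested probe sets called 0.748), and 9 members (10.2%) had an unadjusted p under 0.05, against 7.9% of all tested probe sets. The smallest adjusted p among members was 0.273, for Atp5md, a small membrane subunit of the ATP synthase. The median member spanned 0.87 log2 units between its lowest and highest strain array, against 1.09 for all tested probe sets. Without MOLF A and NZB B these spans were 0.56 and 0.70.

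Averaged over 64 general genes with each gene centred on its 9 strain arrays, the chain lay at -0.05 and -0.08 in ILn, 0.15 and 0.12 in LP, 0.08 and 0.08 in MOLF, -0.04 and -0.20 in NZB and -0.07 in FVBn. Besides subunits, these genes include the complex I assembly factors Ndufaf1 and Ndufaf4 and the supercomplex factor Cox7a2l. The LP arrays were the highest and NZB B the lowest under this scaling. Under median centring, MOLF A lay at -0.31 and NZB B at -0.54, so the sign of MOLF A depends on the scaling, and LP lay at 0.26 and 0.24. The spread within NZB came from some complexes more than others: NZB B lay at -0.68 for complex II, -0.40 for complex III and -0.41 for complex V, but at -0.08 for complex I and 0.08 for complex IV. Under median centring NZB B lay at -0.41, -0.95, -0.82, -0.29 and -0.71 for complexes I to V, so its sign in complex IV depends on the scaling.

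**Figure D1:**
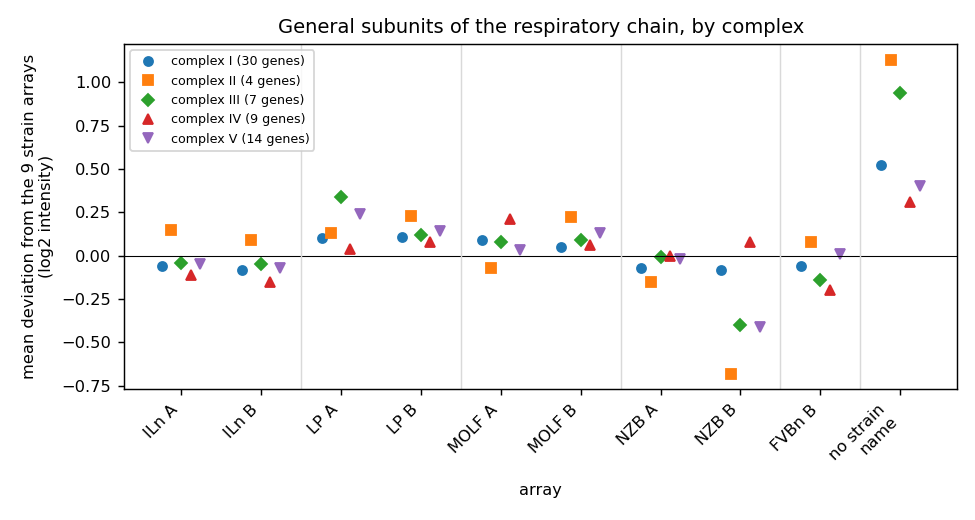
Mean deviation of the general genes (subunits, with Ndufaf1, Ndufaf4 and Cox7a2l) from their 9-array mean (log2 intensity, y axis) on each array (x axis). There is 1 symbol per complex, and no error bars are drawn. Under quantile normalization the strain arrays lie within 0.35 units of 0 except NZB B, with complex II at -0.68, complex III at -0.40 and complex V at -0.41, and the array with no strain name is highest in every complex.

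In LP against the mean of ILn, MOLF and NZB, 0 of 88 members passed the test (limma, adjusted p under 0.05; 0.313% of all tested probe sets called), with 11 members (12.5%) at an unadjusted p under 0.05 against 5.69% of all. The median member difference was 0.13 log2 units, beside -0.01 for all tested probe sets, with a median standard error of 0.24 for a single member. By sign, 67 members were positive and 21 negative, all 7 of complex III and all 4 of complex II being positive. In LP against MOLF alone, 5 of these 7 and 2 of these 4 were positive. Relative to the 9-array mean, complex II lay at 0.13 and 0.23 in LP and 0.15 and 0.09 in ILn. It lay at -0.07 and 0.22 in MOLF and -0.15 and -0.68 in NZB. In 9 members both LP arrays lay above the 6 arrays of the other 3 strains (10.2%, against 4.47% of all tested probe sets), and 3 of these 9 were muscle-form probe sets. In 1 member both lay below (1.14%, against 2.55%). Under median centring the median was 0.34, beside 0.07 for all.

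Ndufc1, an accessory subunit of the membrane arm of complex I, measured 9.32 and 9.45 in LP, against 8.54 and 8.77 in ILn, 8.66 and 9.09 in MOLF and 9.04 and 7.92 in NZB. The LP arrays did not overlap the others, and the difference was 0.72 (SE 0.289, limma adjusted p = 0.83). Ndufa10, another accessory subunit, lay the other way, at 6.54 and 7.01 in LP against 7.38 and 7.19 in ILn, 8.07 and 7.46 in MOLF and 7.10 and 8.50 in NZB. Its difference was -0.85 (limma adjusted p = 0.903), with MOLF A and NZB B the highest arrays. Neither difference passed the test, and that of Ndufa10 was -0.25 among the 5 arrays, 1 per strain name, whose titles carry the same date.

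Atp5md measured 10.52 and 10.36 in LP, 10.37 and 10.06 in MOLF, 9.68 and 9.44 in NZB, 9.21 and 9.74 in ILn, and 9.56 in FVBn. The LP and MOLF arrays were all above the ILn, NZB and FVBn arrays. The LP difference from the other 3 strains was 0.69 (SE 0.177, limma adjusted p = 0.348) and the ILn difference was -0.59 (SE 0.177, limma adjusted p = 0.411). Among the arrays of the shared title date these were 0.53 and -0.29.

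In NZB against the mean of ILn, LP and MOLF, 0 of 88 members passed (limma, adjusted p under 0.05; 0.101% of all tested probe sets called), and 13 (14.8%) had an unadjusted p under 0.05 against 8.4% of all. The median difference was -0.10, beside 0.00 for all. All 7 complex III members (median -0.23) and all 4 complex II members (median -0.53) were lower in NZB, whereas 11 of 15 tested general and testis-form probe sets of complex IV were higher (median 0.16). The lower values lay mainly on NZB B. Relative to the 9-array mean, complex III lay at -0.01 in NZB A and -0.40 in NZB B, and complex II at -0.15 and -0.68. Complex IV, over 9 general genes with 1 probe set each, lay at 0.00 and 0.08. In 6 of the 15 complex IV probe sets MOLF A and NZB B held the 2 highest values (40.0%, against 19.7% of all tested probe sets). Both NZB arrays lay below all 6 arrays of the other 3 strains in 9 members (10.2%, against 4.24% of all tested probe sets) and above them in 2 (2.27%, against 3.74%). NZB B, which stands apart over the whole array, is 1 of the 2 NZB arrays. Without MOLF A and NZB B the median was -0.06, beside 0.00 for all. Under median centring it was -0.23, beside -0.07 for all.

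Ndufb6, an accessory subunit of the complex I membrane arm, measured 9.09 and 8.99 in NZB, against 9.72 and 9.52 in ILn, 9.89 and 9.69 in LP and 9.65 and 9.54 in MOLF. The NZB arrays lay close together, below every other array and below FVBn at 9.42. The difference was -0.63 (SE 0.126, limma adjusted p = 0.216), and -0.50 among the arrays of the title date that holds all strains. Cox6a1, the general form of the complex IV subunit VIa, had a similar layout: 10.86 and 10.71 in NZB, against 11.14 and 11.18 in ILn, 11.26 and 11.27 in LP and 11.07 and 11.14 in MOLF. Its difference was -0.39 (SE 0.102, limma adjusted p = 0.374), and FVBn at 10.92 was the next array above NZB.

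Other members separated NZB mainly through array B. Atp5k, the e subunit of the ATP synthase membrane part, measured 5.44 in NZB A and was at the floor of 4.75 in NZB B, against 6.12 and 6.32 in ILn, 6.97 and 6.12 in LP and 6.01 and 5.87 in MOLF (difference -1.14, limma adjusted p = 0.485). Uqcr11, a small subunit of complex III, measured 9.17 and 8.27 in NZB, against 9.33 and 9.42 in ILn, 9.98 and 9.35 in LP and 9.40 and 9.56 in MOLF (difference -0.79, limma adjusted p = 0.513). Sdha, the flavoprotein that oxidises succinate, measured 6.46 and 5.73 in NZB, against 6.89 and 6.75 in ILn, 6.58 and 6.98 in LP and 6.60 and 7.16 in MOLF (difference -0.73, limma adjusted p = 0.615). In each of these 3 genes NZB B was the lowest strain array, and among arrays of the shared title date, which hold NZB A only, the differences were -0.67, -0.27 and -0.50 in that order.

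The 2 members with both NZB arrays above the other 6 were Ndufa2, an accessory subunit of complex I, at 9.12 and 9.11 in NZB against 8.51 to 9.04 in the other 3 strains (difference 0.28, limma adjusted p = 0.623), and 1 of 3 probe sets of Cox6c, a small complex IV subunit. That probe set measured 5.76 and 5.88 in NZB against at most 5.50 on the ILn, LP and MOLF arrays (difference 0.85, limma adjusted p = 0.48). The brighter Cox6c probe set measured 10.80 and 10.95 in NZB and 10.15 to 11.08 in the other 3 strains, so its arrays overlapped.

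**Figure D2:**
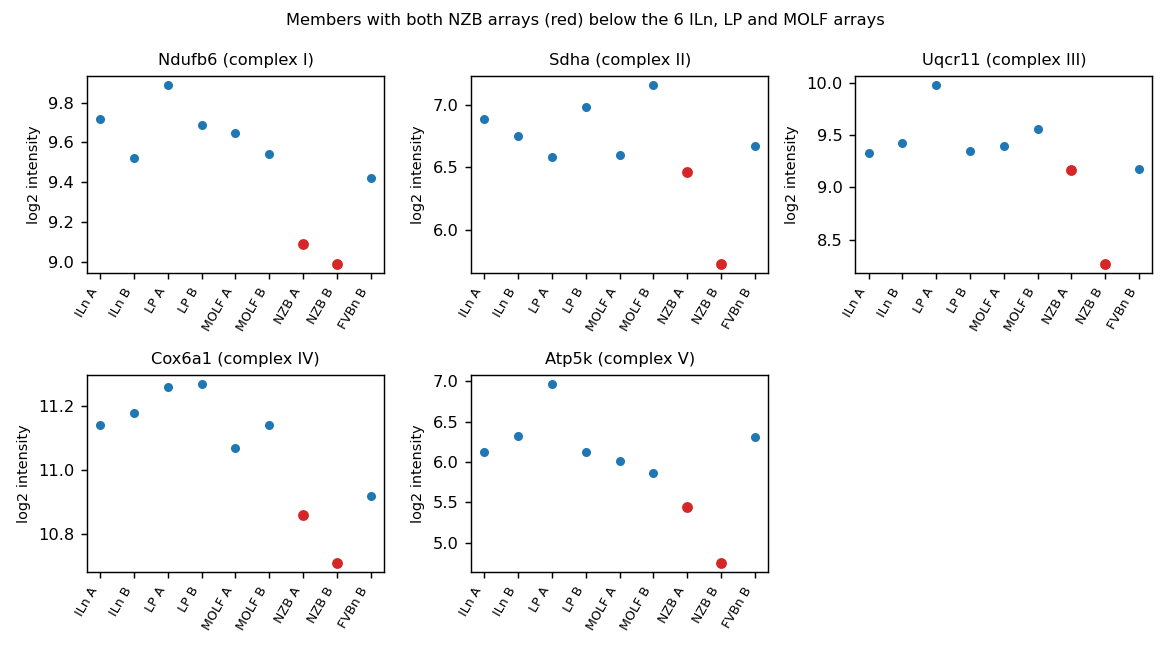
Normalized log2 intensity (y axis, own scale in each panel, not starting at 0) of the 5 members named by complex with both NZB arrays (red) below the 6 ILn, LP and MOLF arrays (blue); FVBn B is the rightmost point. Ndufb6 and Cox6a1 have both NZB arrays close together, whereas in Sdha, Uqcr11 and Atp5k NZB B lies well below NZB A.

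In ILn against the mean of LP, MOLF and NZB, 0 of 88 members passed (limma, adjusted p under 0.05; 0.404% of all tested probe sets called), and 8 (9.09%) had an unadjusted p under 0.05 against 7.11% of all. The median difference was -0.15, beside -0.02 for all, with 63 members negative and 25 positive. Both ILn arrays lay below the other 6 in 8 members (9.09%, against 3.77% of all tested probe sets), 6 of them in complex I, and above them in 1 (1.14%, against 6.6%). Under median centring the median was -0.04, beside 0.04 for all.

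Cox4i1, the largest nuclear-coded subunit of complex IV, measured 6.53 and 6.56 in ILn by its probe set with the higher mean, against 7.23 and 7.04 in LP, 7.45 and 7.13 in MOLF and 7.07 and 7.70 in NZB. The difference was -0.72 (SE 0.278, limma adjusted p = 0.63), and the FVBn array, at 6.07, was lower than all 8 others. The other Cox4i1 probe set overlapped, at 6.43 and 6.48 in ILn against 6.22 to 6.95 in the other 3 strains. Ndufa3, a complex I accessory subunit, measured 4.93 and 5.57 in ILn by its dimmer probe set, against 5.69 to 6.38 (difference -0.76, limma adjusted p = 0.632). Its brighter probe set measured 9.41 and 9.41 in ILn against 9.51 to 9.81, with a smaller separation. Atp5g2, which encodes the c subunit of the ATP synthase rotor, differed in sign between probe sets, at -0.33 and 0.46 (limma adjusted p = 0.755 and 0.808), the second of which was 0.23 among the arrays of the shared title date.

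In MOLF against the mean of ILn, LP and NZB, 0 of 88 members passed (limma, adjusted p under 0.05; 0.414% of all tested probe sets called), with 4 (4.55%) at an unadjusted p under 0.05 against 6.42% of all. The median difference was 0.09, beside 0.01 for all. Under median centring it was -0.05, the same as the -0.05 for all. In 1 member both MOLF arrays lay above the other 6 (1.14%, against 2.84%) and in none below (against 3.38%). This was Ndufab1, the mitochondrial acyl carrier protein that is also a complex I subunit, at 9.27 and 9.26 in MOLF, against 8.76 and 8.73 in ILn, 9.14 and 9.16 in LP and 8.80 and 8.64 in NZB. The difference was 0.39 (SE 0.122, limma adjusted p = 0.497), and array pairs of each strain lay within 0.16 of each other.

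The mean of ILn, LP, MOLF and NZB against the single FVBn array gave 0 of 88 members past the test (limma, adjusted p under 0.05; 0.313% of all tested probe sets called) and 4 (4.55%) at an unadjusted p under 0.05, against 3.41% of all. The FVBn array was taken to vary like the other groups. All 8 arrays lay above FVBn in 7 members (7.95%, against 5.74%) and below it in 3 (3.41%, against 7.85%). Cox4i1 differed by 1.02 (SE 0.361), Ndufa6 by 0.66 and Atp5g1 by 0.50, while Ndufb2 and Atp5d, by probe sets that are not the brightest of their genes, differed by -0.49 and -0.50 (limma adjusted p = 0.999 for each). Probe sets of a gene disagreed in sign: the second probe set of Cox4i1 differed by -0.08 and that of Atp5g1 by -0.14, and those of Ndufb2 spanned -0.49 to 0.71 and those of Atp5d -0.50 to 0.34. Among the arrays of the shared title date, Ndufa6 differed by 0.41. The median difference was 0.09, beside 0.02 for all. Under median centring it was -0.02, beside -0.03 for all.

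LP and MOLF arrays share title dates, as do ILn and NZB arrays, so the title date cancels in these pairs. In LP against MOLF, 0 of 88 members passed (limma, adjusted p under 0.05; 0.444% of all tested probe sets called), and 5 (5.68%) had an unadjusted p under 0.05 against 6.27% of all. In ILn against NZB, 0 of 88 members passed (0.343% of all tested probe sets called), and 13 (14.8%) had an unadjusted p under 0.05 against 9.22% of all. In LP against MOLF the arrays did not overlap in 19 members higher in LP (21.6%, against 17.0%) and 9 lower (10.2%, against 14.6%), and in ILn against NZB in 18 higher in ILn (20.5%, against 21.7%) and 17 lower (19.3%, against 18.7%). The median difference was 0.03 for LP minus MOLF and -0.08 for ILn minus NZB, beside 0.00 for all in both. Under median centring it was 0.30 for LP minus MOLF, beside 0.10 for all. For ILn minus NZB it was then 0.13, beside 0.09 for all.

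**Figure D3:**
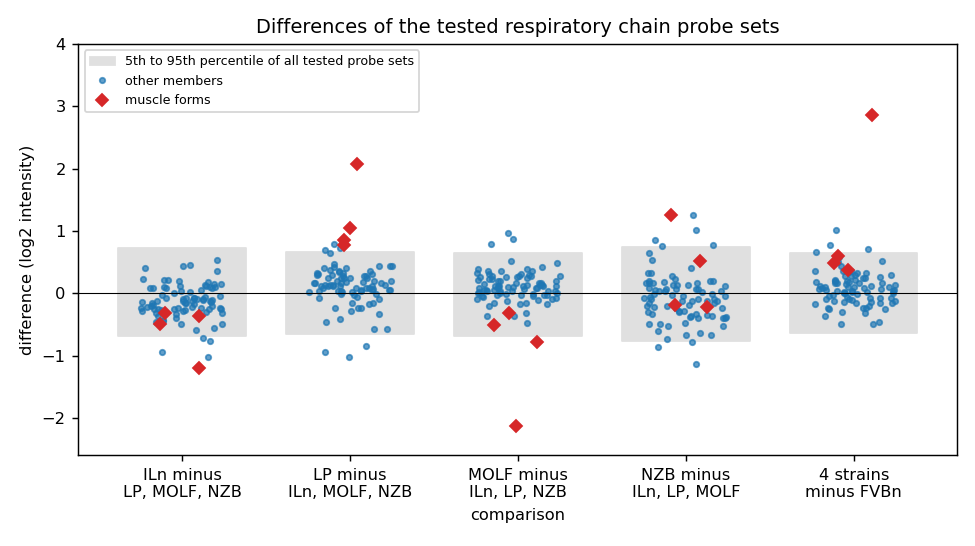
Log2 difference (y axis) of each tested member in 5 comparisons (x axis), with the 4 muscle-form probe sets as red diamonds and the other 84 as blue points; grey boxes span the 5th to 95th percentile of all 9899 tested probe sets. Most members lie inside the grey boxes, and Cox6a2 lies outside in all 5 comparisons, at 2.08 for LP, -2.13 for MOLF and 2.86 for the 4 strains against FVBn, which is at the floor.

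The muscle forms of complex IV spanned wider ranges over the strain arrays than the general forms Cox6a1 and Cox7a2, and LP had the highest strain mean in each of them. The range was 4.59 in Cox6a2, 1.34 in Cox7a1 and 1.33 and 1.26 in Cox8b, against a median of 1.09 for all tested probe sets. Some other members spanned more than Cox7a1 and Cox8b, such as Atp5k at 2.21 and Uqcr11 at 1.71. Cox6a2, the muscle form of subunit VIa, measured 9.01 and 9.34 in LP, 8.68 and 8.41 in NZB, 6.95 and 6.47 in ILn, 7.27 in MOLF A and the floor of 4.75 in MOLF B, and 4.75 in FVBn. LP and NZB arrays were above all others, and the MOLF arrays lay far apart. The difference was 2.08 (SE 0.59) for LP against the other 3 strains, -2.13 for MOLF, 1.25 for NZB and -1.20 for ILn (limma adjusted p = 0.467, 0.432, 0.624 and 0.761). Against FVBn it was 2.86 (SE 0.767, limma adjusted p = 0.646), a value that depends on the floor, since FVBn and MOLF B were both at it, and was 3.49 with the floor at the 10th percentile.

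Cox6a2 passed the test only when a MOLF array was left out. That also took the gap between the MOLF arrays, 7.27 and the floor of 4.75, out of the spread that the test uses. Without MOLF A, LP exceeded the remaining MOLF array, which was at the floor, by at least 4.42 (limma adjusted p = 0.036, the lone array taken to vary like the others) and the F test gave an adjusted p of 0.0402 by limma. Without MOLF B, the LP minus MOLF difference was 1.91 (limma adjusted p = 0.15), and the 4 strains exceeded FVBn, which was at the floor, by at least 3.17 (limma adjusted p = 0.0256). With all arrays, LP minus MOLF was 3.16 (SE 0.723, limma adjusted p = 0.223), made up of 1.74 between the A arrays and at least 4.59 between the B arrays, and ILn minus NZB was -1.83 (limma adjusted p = 0.506). Over the 16 to 17 alternatives of each comparison, the limma adjusted p of Cox6a2 spanned 0.0402 to 0.906 for the F test, 0.036 to 0.92 for LP against MOLF and 0.0256 to 1.0 against FVBn. Within the title date that holds all strains, the LP difference from the other 3 was 2.70 and the MOLF difference was -3.41.

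Cox7a1, the muscle form of subunit VIIa, was dim, at 6.10 and 5.77 in LP, 5.53 and 5.97 in NZB, 5.20 and 4.76 in ILn, 4.79 and 4.75 in MOLF and 4.75 in FVBn. The LP and NZB arrays overlapped and lay above the ILn, MOLF and FVBn arrays. LP differed from the other 3 strains by 0.77 (SE 0.244, limma adjusted p = 0.605) and from MOLF by 1.16 (limma adjusted p = 0.323). Cox8b, the muscle form of subunit VIII, has 2 probe sets. By the brighter one it measured 8.41 and 8.25 in LP, 7.58 and 7.51 in NZB, 7.16 and 7.65 in ILn, 7.83 and 7.08 in MOLF and 7.20 in FVBn, so only the LP arrays stood above the rest. By the dimmer one it measured 6.01 and 5.82 in LP, 5.18 and 4.75 in NZB, 4.75 and 5.04 in ILn, and 4.75 on both MOLF arrays and in FVBn. LP exceeded the other 3 strains by 0.86 and 1.04 on these probe sets (limma adjusted p = 0.531 and 0.18), and by the dimmer one LP was at least 2.24-fold above MOLF, which was at the floor (limma adjusted p = 0.186).

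The general counterparts covered narrow ranges. Cox6a1 lay between 10.71 and 11.27 on the 9 strain arrays, Cox7a2 between 9.84 and 10.43, and Cox7a2l, a related protein that joins complexes III and IV into supercomplexes, between 8.83 and 9.27. Cox8a was above the floor on 1 array and was not tested. Cox7a2 was also lowest in NZB, at 10.15 and 9.84, against 10.36 and 10.43 in ILn, 10.40 and 10.32 in LP and 10.38 and 10.34 in MOLF (difference -0.38, SE 0.121, limma adjusted p = 0.497). In NZB, the general forms Cox6a1 and Cox7a2 were below the other 3 strains. The muscle forms differed in sign there, with Cox6a2 at 1.25 and Cox7a1 at 0.52 relative to the mean of the other 3 strains, but Cox8b at -0.19 and -0.22 by its brighter and dimmer probe sets. None of these differences passed the test.

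**Figure D4:**
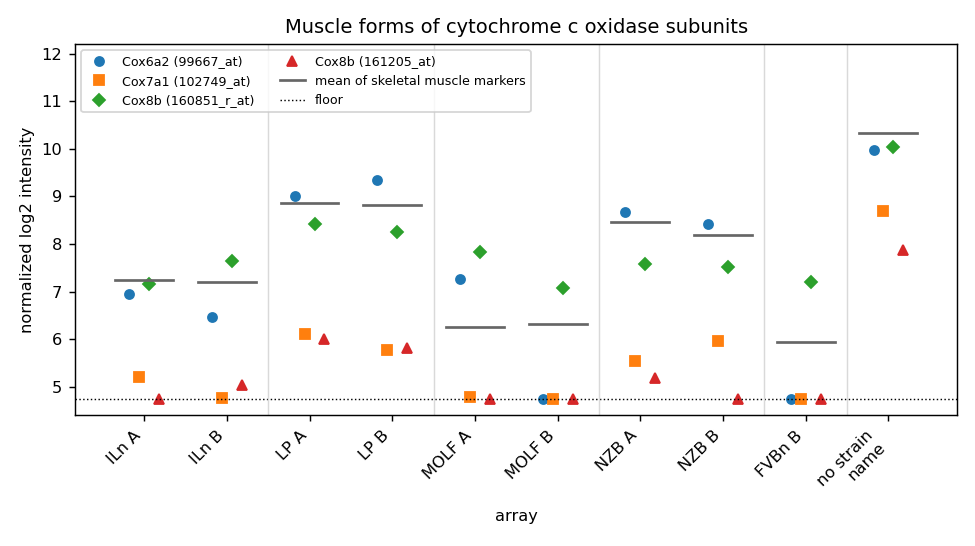
Normalized log2 intensity (y axis, starting near the floor of 4.75, dotted) of the 4 muscle-form probe sets on each array (x axis); grey bars are the mean of 19 skeletal muscle markers on that array, with Myh2 at the floor on the strain arrays. LP and NZB arrays hold the higher Cox6a2 and Cox7a1 values among strain arrays, and the marker mean is 8.85 and 8.82 in LP, 8.45 and 8.18 in NZB and 5.94 in FVBn.

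Skeletal muscle markers were high in LP and NZB, as were Cox6a2 and Cox7a1, whereas Cox8b was high in LP only. Of 19 such genes, 18 were tested and Myh2 was at the floor on all 9 strain arrays. Their summed intensity was 15002 and 14132 in LP, 11942 and 11935 in NZB, 4740 and 4711 in ILn, 2633 and 2232 in MOLF and 1797 in FVBn. In LP against the other 3 strains 6 of the 18 rose (limma, adjusted p under 0.05), beside 0.313% of all tested probe sets called. By the same test 7 fell in MOLF (0.414% of all called) and 1 rose in NZB (0.101%). In LP against MOLF 9 rose (0.444%). The median difference in NZB was 1.07, and of the 18 only Des (-0.49) and Ckmt2 (-0.38) were negative there. Acta1, the skeletal muscle actin, measured 11.64 and 11.48 in LP, 11.49 and 11.55 in NZB, 10.12 and 10.17 in ILn, 7.78 and 7.90 in MOLF and 7.86 in FVBn. The part of muscle tissue in the Cox6a2, Cox7a1 and Cox8b values was not tested, and in whole tumours fewer cells of a type and less RNA per cell cannot be told apart.

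Adipocyte markers, of which 6 were tested and Cidec and Pparg were at the floor on all 9 arrays, followed the same order of strain names by summed intensity, over a narrower range. By mean log2 intensity the order of ILn and NZB was not the same, at 6.68 and 6.58 in ILn and 6.58 and 6.48 in NZB. Single markers did not share the order. Lep measured 8.34 and 9.52 in NZB and 8.88 in FVBn, against 7.67 and 8.47 in LP. Among the strain arrays Adipoq and Lpl were highest in LP but lowest in NZB B, at 6.97 and 6.04. The adipocyte markers summed to 1424 and 1398 in LP, 1229 and 1309 in NZB, 1163 and 1129 in ILn, 1052 and 1036 in MOLF and 909 in FVBn. Of the 6 tested, 0 passed the test in any of the 8 comparisons (limma, adjusted p under 0.05, with 3 at an unadjusted p under 0.05 in LP against the other 3 strains). Their part in the muscle-form values was not tested. Brown adipocyte markers, of which 3 of 5 were tested and Elovl3 and Ppargc1a were at the floor on all 9 arrays, summed to 188 and 191 in LP, 162 and 396 in NZB, 184 and 131 in ILn, 513 and 195 in MOLF and 108 in FVBn. Their high arrays were MOLF A and NZB B. Salivary or lacrimal gland markers summed to 21790 and 20420 in ILn, 371 and 174 in LP, 4022 and 4851 in MOLF, 335 and 251 in NZB and 28772 in FVBn, so ILn and FVBn were high, and their part in the ILn and FVBn comparisons was not tested. Slow or cardiac muscle markers summed to 261 to 488 on the strain arrays. Mammary epithelial markers summed to 10300 to 13377, with LP A highest.

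Testis forms of complex IV were on the array too. Cox8c, described in human testis, lay between 8.41 and 9.04 on the strain arrays by its brighter probe set. The Cox6b2 probe set with the highest mean measured 7.49 in MOLF A and 8.19 in NZB B and was at the floor on the other 7 arrays, and an Ndufb2 probe set behaved alike, at 7.47 and 7.69. In all, 4 members were above the floor on MOLF A and NZB B alone (4.55%, against 3.14% of all tested probe sets). These arrays held the 2 highest values in 18 members (20.5%, against 19.7%) and the 2 lowest in 12 (13.6%, against 16.9%). The brightest Ndufb2 probe set was lowest on them, at 9.84 and 9.87 against 10.12 to 10.65 elsewhere, so probe sets of the gene disagreed.

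Of the 10 members not tested, 8 were additional probe sets of genes with other members, at the floor on all 9 strain arrays. Ndufs4 and Cox8a, each with 1 probe set, were above the floor on 1 array. Of the 88 tested, 71 lay above the floor on all 9 arrays. Affymetrix suffixes f, i, r and s, which mark probe sets with relaxed design or with possible matches to related sequences, were carried by 35 of the 98 members, including those of Cox6a1 and Atp5md, the brighter Cox8b probe set and the Cox4i1 probe set with the higher mean. Signal of near-identical copies cannot be told apart there.

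Neighbouring mitochondrial pathways held 0 called genes in all 8 comparisons (limma, adjusted p under 0.05, with 0.101% to 0.748% of all tested probe sets called). They comprised 14 tested citric acid cycle genes, 60 of the mitochondrial ribosome, 9 of mitochondrial fatty acid oxidation, 10 carriers and channels, 8 electron carriers and feeders, 7 regulators and 3 assembly factors. At an unadjusted p under 0.05, no list had more than 5 genes in a comparison. The highest count was 5 of the 60 mitochondrial ribosome genes in ILn against NZB, where 9.22% of all tested probe sets were under it. Slc25a5, an ADP/ATP carrier that exchanges the product of complex V for ADP, measured 8.16 and 8.02 in NZB, against 9.11 and 9.18 in ILn, 9.19 and 8.91 in LP and 9.30 and 9.23 in MOLF. FVBn lay at 9.31, and the NZB difference of -1.06 came close to the threshold (limma adjusted p = 0.0686). This Slc25a5 probe set carries the suffix f, so signal of related sequences cannot be told apart. Slc25a4, the carrier form abundant in heart and muscle, measured 10.23 and 10.13 in LP, above every other strain array, the lowest of which was NZB B at 9.22 (F test, limma adjusted p = 0.742).

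Acadm, the medium-chain acyl-CoA dehydrogenase, measured 9.14 and 8.96 in ILn, 8.91 and 8.54 in NZB, 8.37 and 8.04 in LP, 8.30 and 8.59 in MOLF and 8.02 in FVBn (F test, limma adjusted p = 0.524). Both ILn arrays were above the other strain arrays. Of the remaining genes named for the smallest F test p in their lists, Mrps18a, Mrpl42, Idh3a, Acaa2, Suclg1, Gpd2, Cyct, Surf1, Cox17, Polrmt and Esrra had limma adjusted p of 0.424 to 0.852. Surf1, an assembly factor of complex IV, was at the floor in NZB B and at 6.28 in MOLF A, against 7.66 to 7.94 on the other 7 strain arrays.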

How the data were processed

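Probe set intensity values, 1 per probe set and array on a linear scale, were used as deposited by the authors. Neither labels nor files give the method that summarised probes. In Python and R 4.3.3 with limma 3.58.1, the 9 strain arrays were quantile normalized over 12422 probe sets (66 controls left out), a floor was set at the 30th percentile (27.0, log2 4.75; lower values became this value), and probe sets above it on at least 2 arrays (9899) were tested. The tenth array, without a strain name, took the same distribution and was not tested. The platform annotation names a single symbol for 10855 probe sets, and 10839 were updated through Entrez identifiers with RefSeq GRCm38.p6, which also supplied the upstream sequences.

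The limma model (lmFit, eBayes with trend) had 1 mean per strain name, and p-values were adjusted by Benjamini-Hochberg over all tested probe sets. It was tested on simulated data. The number of arrays limits the precision. Alternatives were median centring, a lower floor, other filters, array weights, title date or array letter as a block, and leaving out arrays. The letters A and B are not stated to pair arrays. The named genes were the muscle forms and their counterparts, members past a test, in each complex the member with the largest difference each way whose groups did not overlap (for 5 comparisons), the 5 smallest F test p, and 2 genes per pathway list. Members and lists were chosen with earlier results of these data known.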

Additional observations from a re-analysis of the deposited data

Results flagged for a closer look

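The array whose title names no strain entered no comparison, and its respiratory chain signal stood above that of the strain arrays. On it 50 of the 88 tested members were higher than on all 9 strain arrays (56.8%, against 16.4% of all tested probe sets) and 3 were lower (3.41%, against 17.3%). The 4 complex II and 7 complex III members were all among the higher ones. The muscle forms measured 9.98 for Cox6a2, 8.69 for Cox7a1, and 10.03 and 7.88 for the brighter and the dimmer Cox8b probe set. On the same array the summed intensity of skeletal muscle markers was 46214, against 1797 to 15002 on the strain arrays, and that of adipocyte markers was 18276, against 909 to 1424. Mammary epithelial markers summed to 7210, against 10300 to 13377. The part of these tissues in the values was not tested.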

How the results depend on the processing

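The count of members past the test was 0 in all 8 comparisons as reported and also under median centring, a floor at the 10th percentile, no filter, a filter of 5 arrays, title date as a block, array weights, and without MOLF A and NZB B. With the array letter as a replicate block it was 0 in every comparison. Leaving out 1 array at a time gave 0 to 1 for the F test, for the 4 strains against FVBn and for LP against MOLF, the 1 member being Cox6a2 (without MOLF A, MOLF B and MOLF A in that order), and 0 elsewhere. FVBn B cannot be left out of its own comparison. The Cox6a2 difference was then at least 3.17 for the 4 strains against FVBn and at least 4.42 for LP against MOLF, since FVBn B and MOLF B were at the floor. Of 798 alternative values of single members 790 kept their direction and side of the threshold. Cox8b reversed in 6. By the brighter probe set, leaving out 1 array gave -0.39 to 0.11 for ILn minus NZB (0.11 without ILn A) and -0.68 to 0.07 for MOLF against the others (0.07 without MOLF B), and title date as a block gave 0.06 for NZB against the others. By the dimmer one, ILn minus NZB was 0.09 with the floor at the 10th percentile and -0.29 to 0.14 without 1 array (0.07 without ILn A, 0.14 without NZB A). The causes were not tested. Values at the floor have no order, which limits Cox6a2, Cox7a1, Cox8a and Cox8b.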
